A study of Mus musculus with 24 samples.

Results

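Striatal RNA of mice heterozygous for Cntnap2 was set against that of wild-type mice, in offspring of mothers that had not been stressed. The comparison used 3 het and 3 wild-type libraries, which are 6 of the 12 RNA libraries and 6 of the 24 libraries of the series. Members were taken by their labels, genotype and prenatal condition, and all 37289 genes in the files were considered, of which 15955 had enough counts to test. All mice were labelled female and C57BL/6. The het mice were heterozygous for Cntnap2, and the sources used here do not name the allele. In the other 2 groups of 3, het and wild type, the mothers went through 7 days of variable stress from embryonic day 12.5. Handling was shared by all groups: ear tags at postnatal day 12, weaning at day 18 into groups of littermates of the same sex, and death 2 hours after lights on. The age at death is not given, and the labels do not say which mice were littermates. The labels give the libraries different animal numbers, and p-values cover only the spread among them.

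Cntnap2 encodes Caspr2, a transmembrane adhesion protein of the neurexin superfamily. With contactin-2 on the opposing membrane it gathers voltage-gated potassium channels of the Kv1 family beside the paranodes of myelinated axons, and it is also found at synapses. In people, loss of both copies causes a syndrome with epilepsy and autistic features, and mice without the protein have been described with fewer parvalbumin interneurons. The striatum is made mostly of GABAergic medium spiny neurons, with sparse interneurons, white-matter bundles that cross it, and neighbours (septum, cortex, ventricle, thalamus) that a tissue punch can touch.

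Depth is given in expected counts, the read counts that RSEM assigns to genes. Depth ran from 17416745 to 18405376 in wild-type and from 22124498 to 24039706 in het mice, without overlap, so depth and genotype cannot be told apart here beyond the per-million scaling of counts (CPM). Markers of spiny neurons were abundant in every library, with the dopamine signalling protein Ppp1r1b (DARPP-32) at 1109 to 2573 TPM, a per-million transcript level that corrects for length, and the dopamine receptor Drd1 at 66.3 to 129 TPM. Of the cortical markers, the transcription factor Tbr1 was at 0.77 to 6.26 TPM, Neurod6 at 1.09 to 15.3 TPM and Slc17a7 at 9.47 to 116 TPM. Each was highest in wild-type replicate 2 and lowest in het replicate 3. Transthyretin (Ttr), made by the choroid plexus in the ventricle, ranged from 2.23 to 826 TPM, with the lowest value in het replicate 3. The hypothalamic peptide precursor Pmch had 881 counts in het replicate 1 and 5 to 137 in the other 5 libraries. Libraries also differed in how counts depended on transcript length. The slope of a gene's deviation from its mean (log2 CPM) on log2 effective length was -0.27, -0.05 and 0.25 in wild-type replicates 1 to 3 and -0.34, 0.02 and 0.13 in the het ones, so both replicates 1 were lowest. The RNA data of het replicate 1 carry another animal number than its label, so the identity of that mouse is unsure. Xist, the RNA of the silenced X chromosome in females, was at 127 to 527 CPM in 11 of the 12 RNA libraries and at 2.71 CPM in the library labelled stressed wild-type replicate 2, which goes against its label. That library is not among the 6 compared here, but it adds to the estimate of spread and to the stressed comparison, which is therefore also given without it.

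Cntnap2 itself had overlapping levels in the genotypes. Its level was 43.55, 40.29 and 55.11 TPM in the wild-type libraries and 42.55, 35.97 and 45.97 TPM in the het libraries. Wild-type replicate 3 was the highest of the 6 libraries and het replicate 2 the lowest. Means were 46.3 ± 7.79 and 41.5 ± 5.08 TPM (SD, n = 3 each), a difference of -0.15 on the log2(TPM + 1) scale with a two-sided exact permutation p of 0.5, where 3 against 3 cannot go below 0.1. On counts, edgeR's quasi-likelihood test gave a log2 fold change of -0.36 ± 0.22 (SE) with an adjusted p of 0.99999. Without wild-type replicate 3 the difference was -0.02 in log2(TPM + 1) and -0.14 by edgeR. With both replicates 1 left out and the length slope as a covariate, which leaves 2 mice against 2, edgeR called it lower (-0.44, adjusted p = 0.0220), in a fit that called 1.21% of all genes.

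The files hold 3 transcripts of the gene. The 1625-nucleotide ENSMUST00000060839.6 carried most of the level in TPM, with 38.1, 30.79 and 32.54 TPM in wild-type and 39.81, 28.55 and 39.14 TPM in het libraries. The 6983-nucleotide ENSMUST00000114641.1 was at 4.12, 7.22 and 19.49 TPM in wild-type and 1.89, 5.21 and 6.83 TPM in het libraries. In expected counts it exceeded the 1625-nucleotide one in wild-type replicates 2 (676 against 639) and 3 (1444 against 534), and in no other unstressed library. Its highest value was again in wild-type replicate 3, the unstressed library of highest length slope, and the groups overlapped (two-sided exact permutation p = 0.4, n = 3 each, adjusted p = 0.6 over the 3 transcripts). The 340-nucleotide ENSMUST00000150737.1 stayed at or under 3.08 TPM. Since the altered part of the gene is not given, none of these transcripts can be said to check the genotype.

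Where the transcripts of Cntnap2 begin bears on what a shorter or longer transcript reports, so both start windows that RefSeq gives are shown, on the plus strand of chromosome 6 in GRCm38.p6, with capitals for the first 50 bases from the start site on. The first spans chr6:45059811-45060110 and the second chr6:47244146-47244445, 2184 kb further along the gene. The RNA files were made on mm9 and pair no transcript with a start here.
upstream start: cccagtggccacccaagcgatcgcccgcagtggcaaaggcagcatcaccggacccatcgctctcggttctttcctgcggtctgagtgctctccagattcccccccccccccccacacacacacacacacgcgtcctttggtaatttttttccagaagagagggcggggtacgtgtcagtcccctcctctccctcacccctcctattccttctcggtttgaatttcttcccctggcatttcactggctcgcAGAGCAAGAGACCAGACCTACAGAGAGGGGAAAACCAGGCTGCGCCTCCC
downstream start: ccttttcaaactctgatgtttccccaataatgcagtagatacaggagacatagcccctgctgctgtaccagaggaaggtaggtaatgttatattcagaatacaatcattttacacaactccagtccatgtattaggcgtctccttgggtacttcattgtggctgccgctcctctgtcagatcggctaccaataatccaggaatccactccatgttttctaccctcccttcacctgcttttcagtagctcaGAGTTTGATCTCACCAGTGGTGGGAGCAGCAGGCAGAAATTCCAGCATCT
The upstream window was 59.7% G and C with 14 CpG sites, and 36.3% of the 32851 windows of that length in the table held at least as many. The downstream window was 46.3% G and C with 3 CpG sites, a number reached by 76.7% of all windows.

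**Figure D1:**
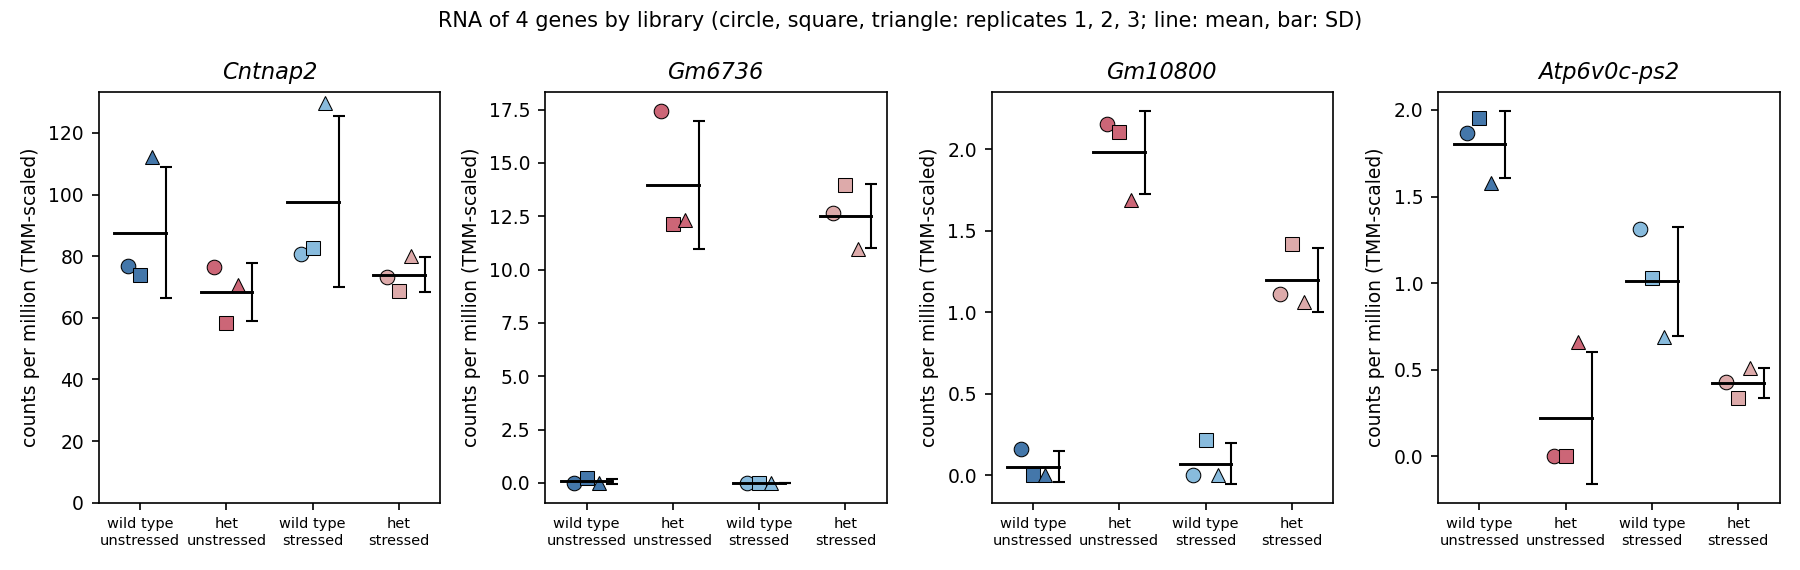
CPM (per-million counts, TMM-scaled) of Cntnap2, Gm6736, Gm10800 and Atp6v0c-ps2 in the 12 RNA libraries, by genotype and prenatal condition; circles, squares and triangles are replicates 1, 2 and 3, lines are means and bars SDs of 3 libraries. Cntnap2 overlaps between the unstressed genotypes, while Gm6736 is at 12.1 to 17.5 in unstressed het mice and at most 0.223 in wild-type mice.

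A pseudogene, Gm6736 (ENSMUSG00000071414.3, chromosome 12), was the only gene that edgeR called between unstressed het and wild-type mice, 0.00627% of the 15955 genes tested. Its expected counts were 0, 3.56 and 0 in wild-type and 373, 265 and 300 in het libraries. That is 0, 0.223 and 0 CPM against 17.5, 12.1 and 12.3 CPM, so the gene was near absent in each wild-type mouse and present in each het mouse. The log2 fold change was 7.44 ± 0.60 (SE; edgeR adjusted p = 0.0110). The ratio of summed counts, scaled for depth, was 187 with a 95% counting interval of 72.8 to 687, which covers counting error only. DESeq2 called 2 genes, 0.0125% (Gm6736 and Gm10800), and limma-trend 1 (Gm6736). The call draws on the spread of all 12 libraries: in a fit of the 6 unstressed libraries alone the fold change was again 7.44 and the adjusted p 0.516. That edgeR fit called 0 genes, with 89 at an unadjusted p under 0.05. It was also lost without het replicate 2 (adjusted p = 0.0598) or without stressed het replicate 1, 2 or 3 (0.0722, 0.0637 and 0.0630). Without the library labelled stressed wild-type replicate 2 the adjusted p was 0.0137.

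Gm10800 had the next smallest p. Its CPM was 0.165, 0 and 0 in wild-type and 2.15, 2.1 and 1.69 in het libraries. The groups were far apart, though at 133 counts in het against 3 in wild-type mice over the group. Its log2 fold change was 5.00 ± 0.85, with an adjusted p of 0.880 by edgeR and 0.000121 by DESeq2. The counting interval of the ratio ran from 11.8 to 174. Gm6736 is a pseudogene and Gm10800 had no match by symbol in the RefSeq table. Reads can be split among near-identical copies in counting, so which locus gave these reads is uncertain.

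Beyond a log2 fold change of 2 in either direction lay 30 genes, 19 with higher and 11 with lower values in het mice. Of these, 10 are named as pseudogenes and 16 had no match by symbol in the RefSeq table. In 23 of the 30, a library at 0 stood beside a library of the same genotype with at least 10 counts, a pattern that the choice by fold favours. Gm6736 and Gm10800 were among the 7 for which replicates did not switch in this way. The others of these 7 were Shox2, Pmch, ENSMUSG00000087580.2, ENSMUSG00000074562.2 and ENSMUSG00000079399.4. Across the files, 47 tested genes had the same expected counts in all 12 libraries as another gene.

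At an unadjusted p under 0.05, edgeR gave 235 genes, 1.47% of those tested, 96 (0.602%) with higher and 139 (0.871%) with lower values in het mice. CPM values of the genotypes did not overlap for 540 genes, 3.38%, of which 229 (1.44%) were higher and 311 (1.95%) lower. Of the 20 arrangements of 3 against 3 libraries, 2 separate the groups for any gene without ties, a larger share than 3.38%. The median log2 fold change over all genes was 0.003, with 50.7% of genes above 0 and 49.3% below. The 5% and 95% quantiles were -0.41 and 0.34. The genes described from here on did not pass edgeR's test after adjustment.

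**Figure D2:**
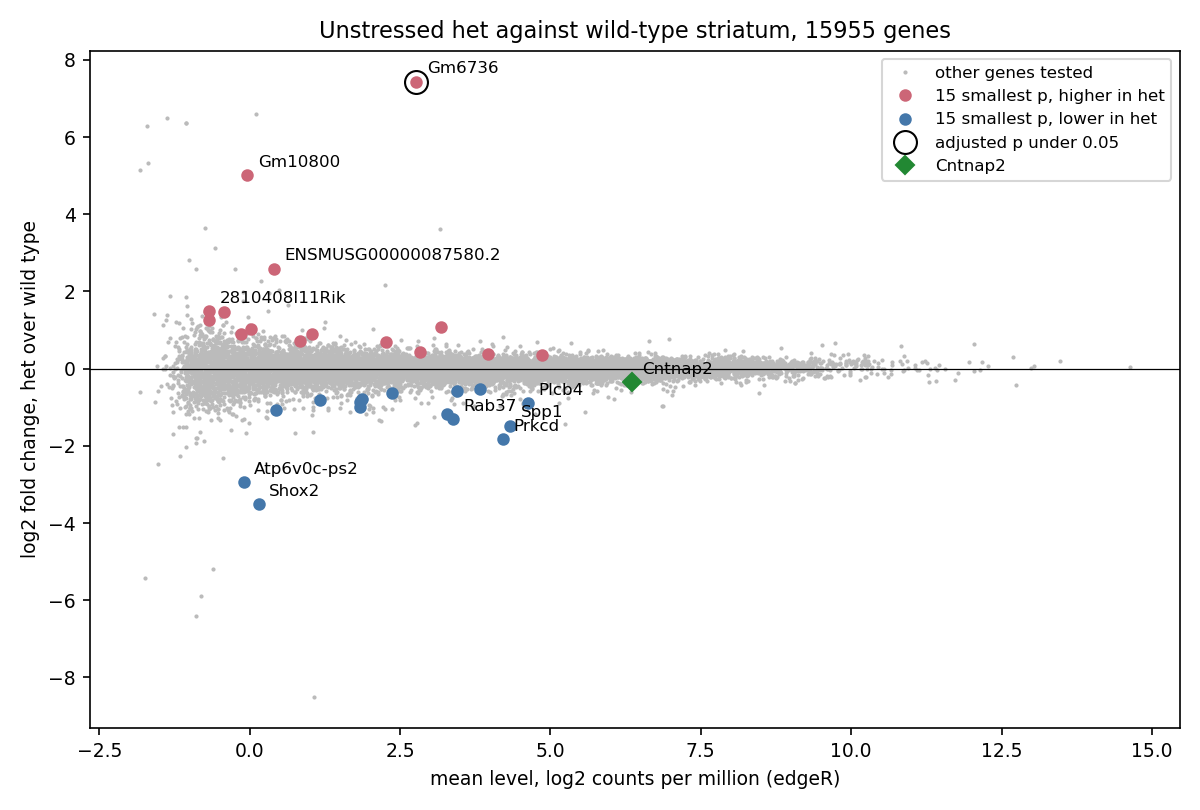
Log2 fold change of unstressed het over wild-type striatum against mean level (log2 CPM) for 15955 genes; red and blue points are the 15 genes of smallest p in each direction, the ring marks adjusted p under 0.05 and the diamond Cntnap2. Gm6736 (7.44) is ringed, Gm10800 (5.00) and Shox2 (-3.52) lie far from 0, and Cntnap2 (-0.36) lies inside the cloud.

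Among the 15 genes of smallest p with higher values in het mice, 7 are protein-coding. The noncoding RNA 2810408I11Rik was at 0.275, 0.335 and 0.282 CPM in wild-type and 0.936, 0.914 and 0.699 CPM in het libraries (log2 fold change 1.49 ± 0.33). The unnamed gene ENSMUSG00000087580.2 was at 1.04, 0.167 and 0.113 CPM against 3.60, 2.56 and 1.93 CPM (2.59 ± 0.69). In both, every het library lay above every wild-type library. The coding genes were the glycosyltransferase B3gnt4 (1.47 ± 0.41), the centromere factor Oip5 (0.71 ± 0.21), Xrra1 (0.91 ± 0.27), the metallopeptidase Amz1 (0.36 ± 0.11), the plasminogen-binding lectin Clec3b, also called tetranectin (1.02 ± 0.32), the RNA-binding protein Mex3d (0.39 ± 0.13) and E230025N22Rik (0.70 ± 0.20). Amz1 was the most abundant of these, at 26.8, 24.7 and 24.0 CPM in wild-type and 32.2, 31.1 and 33.7 CPM in het libraries. The others named by the same rule were Gm15895 (0.90), G530011O06Rik (1.07), ENSMUSG00000085373.1 (0.43) and ENSMUSG00000091332.1 (1.26). For 14 of the 15 the genotypes did not overlap, which the choice by p largely fixes.

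The 15 genes of smallest p with lower values included 12 protein-coding ones. Rab37, a small GTPase of secretory granules, was at 18.7, 13.2 and 25.6 CPM in wild-type and 6.18, 8.96 and 7.98 CPM in het libraries (-1.31 ± 0.30). Kcns3, a silent subunit that modifies voltage-gated potassium channels, was at 4.45, 5.30 and 6.10 against 3.18, 3.11 and 2.88 CPM (-0.79 ± 0.20). Spp1, the secreted glycoprotein osteopontin, was at 26.5, 25.7 and 53.4 against 10.01, 13.1 and 14.9 CPM (-1.47 ± 0.38). None of these 3 overlapped between genotypes, and wild-type replicate 3 was the highest library in each. Plcb4, a phospholipase C downstream of metabotropic receptors, had -0.89 ± 0.24, and Grik1, the kainate receptor subunit GluK1, had -0.86 ± 0.25. The phosphatase Dusp10, which acts on stress-activated kinases, was at 6.42, 6.08 and 7.39 against 4.02, 4.30 and 4.44 CPM (-0.64 ± 0.17), a difference not carried by a single library. The oxysterol hydroxylase Cyp39a1 had -0.82 ± 0.20, the prolyl isomerase Pin4 -0.57 ± 0.16, the tyrosine phosphatase Ptpn3 -1.16 ± 0.32 and the membrane protein Lhfp -0.52 ± 0.15. Shox2 and Prkcd are described with the thalamic genes. The remaining ones were the pseudogenes Gm7488 (-0.99) and Atp6v0c-ps2 (-2.94) and the unnamed ENSMUSG00000085266.1 (-1.07).

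Atp6v0c-ps2, a pseudogene of a proton pump subunit, lies on chromosome 6, as Cntnap2 does. Its CPM was 1.87, 1.95 and 1.58 in wild-type and 0, 0 and 0.658 in het libraries, from rounded counts (het replicate 2 had an expected count of 0.42). Without het replicate 3, edgeR called it lower (-8.15, adjusted p = 0.0241; 2 genes called, 0.0124%), a fold change against libraries at or near 0 that depends on the prior count. On chromosome 6, the genotypes did not overlap for 36 of 741 genes tested (4.86%), the highest share of 20 chromosomes, whose shares ran from 1.41 to 4.86% against 3.38% over all genes. An unadjusted p under 0.05 was reached by 1.62% of its genes, the 4th highest share. Of the 20 tested genes nearest to Cntnap2 in RefSeq order, 10 on each side, 10 had higher and 10 lower values, from -0.40 to 0.37, with a median of 0.01. The genotypes did not overlap for 3 of them, all higher in het mice (1.44% over all genes), among them the histone methyltransferase Ezh2 (0.18 ± 0.18) and Zfp783 (0.37 ± 0.18). None of the 20 had an unadjusted p under 0.05. Around Gm6736 on chromosome 12, a region looked at after its value was seen, 7 of 20 neighbours had higher and 13 lower values, with a median of -0.10. There too 3 did not overlap, all lower (1.95% over all genes): Kcns3, the RNA helicase Ddx1 (-0.15 ± 0.11) and Greb1 (-0.69 ± 0.34). Of these 20, 1 had an unadjusted p under 0.05 by edgeR (1.47% over all genes), Kcns3.

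RNA of Cntnap2 and of genes for proteins that work with Caspr2 showed no common direction. The list of 38 genes covers Caspr and contactin family members, Cntnap2 among them, Kv1 channels, their beta subunits and the anchoring LGI and ADAM22 group. Of the 38, 12 had higher and 26 lower values, with a median of -0.07 against 0.003 over all genes. None passed the test, 1 had an unadjusted p under 0.05 (1.47% over all genes), and the genotypes overlapped for all 38. That gene was Kcnab3, a Kv1 beta subunit, with 22.5, 26.9 and 52 CPM in wild-type and 14.6, 15.4 and 24.2 CPM in het libraries (-0.90 ± 0.39). The channel Kcna6 (Kv1.6) had -0.33 ± 0.15. Adam11, which anchors Kv1 channels at nerve terminals, had -0.18 ± 0.15. The contactin Cntn5 (0.31 ± 0.27) and the secreted epilepsy protein Lgi1 (0.11 ± 0.13) had higher values. The partners best known from juxtaparanodes varied more among mice than between genotypes. Kcna1 (Kv1.1) was at 102, 137 and 231 CPM in wild-type and 70.8, 152 and 189 CPM in het libraries, Kcna2 (Kv1.2) at 4.23, 12.4 and 25.7 against 3.28, 16.8 and 16.9 CPM, and contactin-2 (Cntn2) at 82.7, 112 and 216 against 55.4, 123 and 139 CPM. Within each genotype, the libraries followed the order of the length slopes in all 3 genes. Without wild-type replicate 3, 30 of the 38 had higher values in het mice (median 0.12).

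Of the 28 interneuron genes tested, 10 had higher and 18 lower values in het mice, and some of those with lower values are given first. Pvalb, the calcium buffer parvalbumin of fast-spiking interneurons, was at 209, 158 and 220 CPM in wild-type and 99.0, 98.9 and 100.04 CPM in het libraries. The groups did not overlap, and the het mice were close to each other in CPM, though less so in TPM (109, 155 and 173), and the log2 fold change of -0.98 ± 0.51 had an unadjusted p of 0.0839 by edgeR (adjusted p = 0.99999). Leaving out any library moved it between -1.11 and -0.89. Of the Kv3 channels that let these cells fire fast, Kcnc2 was at 22.1, 28.7 and 66.8 CPM in wild-type and 16.8, 12.4 and 23.2 CPM in het libraries (-1.16 ± 0.39), and Kcnc1 at 61.1, 76.2 and 164 against 36.3, 63.9 and 97.2 CPM (-0.61 ± 0.39). For both channels the groups overlapped, and wild-type replicate 3 was the highest library. Without it Kcnc2 was at -0.54 and Kcnc1 at -0.07. The neurotrophin receptor Ngfr, a marker of cholinergic cells of the basal forebrain, was at 7.41, 9.77 and 20.2 against 3.79, 3.79 and 8.06 CPM (-1.25 ± 0.51), and at -0.72 with the omission of wild-type replicate 3.

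Other interneuron markers had smaller values. Somatostatin (Sst), of another interneuron class, was at 461, 292 and 189 CPM in wild-type and 489, 259 and 293 CPM in het libraries (0.14 ± 0.33). Chat, the acetylcholine-synthesising enzyme, had -0.25 ± 0.22. Over the 28 interneuron genes, 10 had higher and 18 lower values (median -0.07), 2 had an unadjusted p under 0.05 (Kcnc2 and Ngfr; 1.47% over all genes) and 1 did not overlap, a share near the 3.38% over all genes. In bulk tissue, fewer cells of a type and less RNA per cell cannot be told apart. The non-overlapping member was Pvalb.

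**Figure D3:**
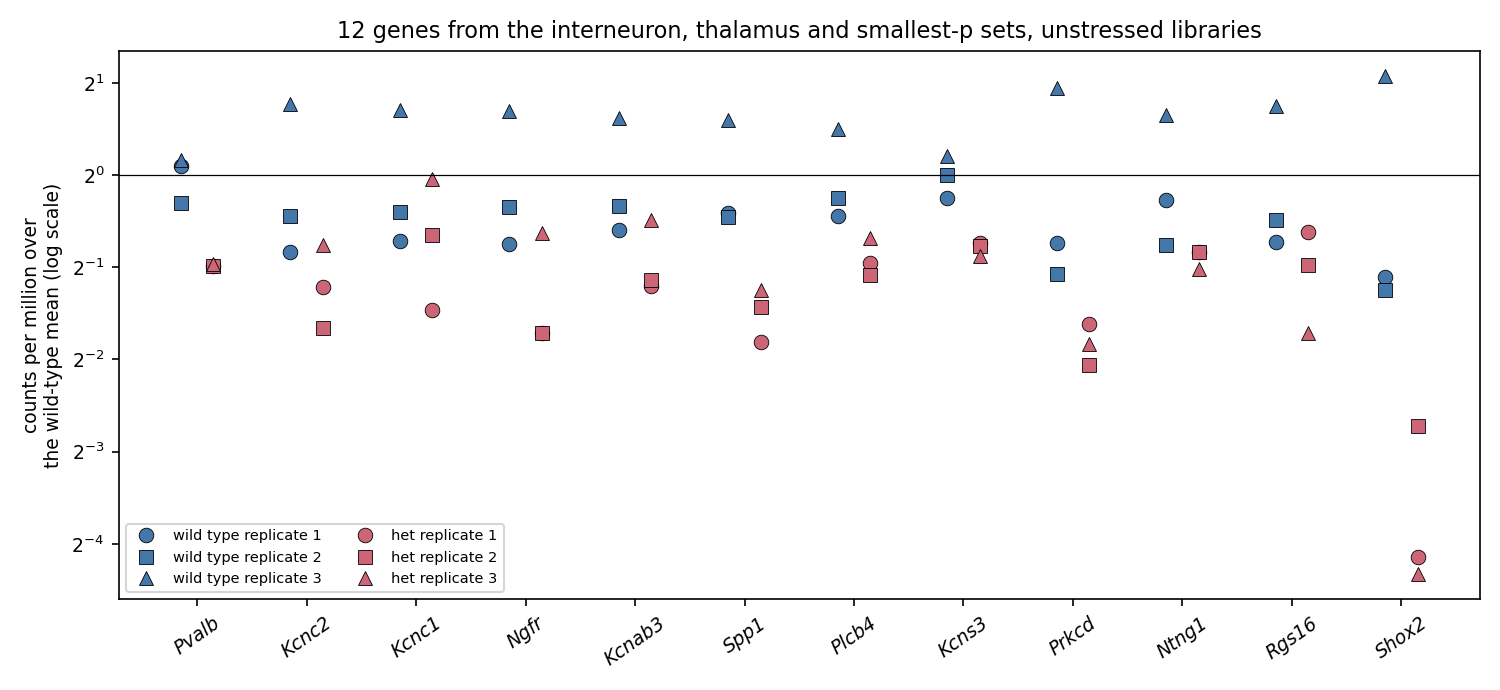
CPM (per-million counts) of 12 genes in the 6 unstressed libraries, each divided by the gene's wild-type mean, on a log scale; blue symbols are wild-type and red symbols het libraries. Pvalb and Kcns3 separate with little spread in het mice, while for Kcnc2, Prkcd and Shox2 wild-type replicate 3 lies far above the other libraries.

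Genes typical of thalamic neurons had lower values in het mice, and 1 library decided much of that. Of the 17 tested, 16 had lower values, with a median of -0.62. For 5 the unadjusted p was under 0.05 (1.47% over all genes), and for 4 the genotypes did not overlap (3.38% over all genes). The homeobox factor Shox2 was at 1.54, 1.4 and 7 CPM in wild-type and 0.187, 0.503 and 0.165 CPM in het libraries (-3.52 ± 0.84). The kinase Prkcd, a protein kinase C of thalamic relay neurons, was at 22.6, 17.9 and 72.8 against 12.4, 9.05 and 10.6 CPM (-1.82 ± 0.49). For both genes every wild-type library was above every het library, and wild-type replicate 3 was far above the other wild-type libraries. Ramp3, a receptor-modifying protein, had -0.98 ± 0.37, the axon guidance cue Ntng1 -0.89 ± 0.32 and the signalling regulator Rgs16 -1.04 ± 0.38. Slc17a6, the vesicular glutamate transporter VGLUT2 that defines these neurons, was at 8.57, 6.31 and 17.6 against 8.52, 1.37 and 2.39 CPM (-1.40 ± 0.70). Cbln4 was the member with a higher value (0.09). Summed over the list, the level was 102, 79.2 and 205 TPM in wild-type and 62.9, 63.2 and 74.1 TPM in het libraries, with no member at 0. Without wild-type replicate 3, 12 of 17 had lower values and the median was -0.32. How much tissue beside the striatum each punch held was not tested.

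Myelin genes, the products of mature oligodendrocytes, had lower values as a group. Of 24 members 23 were lower, with a median of -0.31, 2 had an unadjusted p under 0.05 (1.47% over all genes), and 6 did not overlap, each lower in het mice (1.95% over all genes). Myelin basic protein, Mbp, was at 8215, 9241 and 8028 CPM in wild-type and 5177, 7561 and 6368 CPM in het libraries (-0.42 ± 0.21). The vesicle proteolipid Mal was at 717, 693 and 650 against 568, 583 and 551 CPM (-0.28 ± 0.12). In both genes the groups did not overlap, and het replicate 1 was the lowest for Mbp but not for Mal. The small heat shock protein Cryab had -0.42 ± 0.18, the node matrix protein Hapln2 -0.37 ± 0.17 and the cytoskeletal protein Ermn -0.40 ± 0.20. Opalin was the member with a higher value (0.07). With both replicates 1 left out, a choice made after seeing the data, 23 of 24 were still lower (median -0.23), and over the single-library omissions the median ran from -0.39 to -0.19. Genes of oligodendrocyte precursors had lower values in 12 of 15 members (median -0.11), but without wild-type replicate 3 in 4 of 15 (median 0.09).

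Astrocyte genes showed little as a list, with 6 of 18 higher, 12 lower and a median of -0.04. The exceptions were Gfap, the intermediate filament that marks reactive and white-matter astrocytes, and a few others. Gfap was at 121, 167 and 184 CPM in wild-type and 95.8, 117 and 103 CPM in het libraries (-0.58 ± 0.25), without overlap. Connexin 30, Gjb6, had -0.29 ± 0.15, also without overlap, and angiotensinogen, Agt, -0.75 ± 0.35. Microglial genes (median -0.04, 6 of 18 higher) and vascular genes (0.01, 12 of 22 higher) had no member with an unadjusted p under 0.05 and none without overlap.

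Spiny neuron genes had higher values in het mice, by small amounts. Of 27 genes shared by both types of spiny neuron 26 were higher, with a median of 0.18, the exception being Camk4 (-0.03). None had an unadjusted p under 0.05 and none separated the genotypes. Rasgrp2, a calcium-regulated activator of Rap, was at 296, 237 and 244 CPM in wild-type and 238, 349 and 324 CPM in het libraries (0.23 ± 0.16). The pattern of that gene, with het replicates 2 and 3 high and het replicate 1 among the lowest, was shared by Ppp1r1b, at 2462, 2046 and 2037 against 1746, 2900 and 2745 CPM (0.18 ± 0.20). Tmem158 (0.32 ± 0.16), the retinoid receptor Rxrg (0.30 ± 0.18) and the cAMP-regulated phosphoprotein Arpp21 (0.22 ± 0.14) were the others of smallest p. With both replicates 1 left out, 27 of 27 were higher, with a median of 0.35, but without het replicate 2 or 3 alone the median was 0.04 or 0.05, and without het replicate 1 it was 0.41. Limma-voom with sample weights, which gives libraries that stray from the others less weight, called 13 of the 27 higher, in a fit that called 983 genes, 6.16% of those tested.

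Receptors and peptides that split the direct and indirect pathways overlapped between the genotypes. Among direct-pathway genes 8 of 12 had higher values (median 0.05), among them Drd1 (0.22 ± 0.15) and the substance P precursor Tac1 (0.30 ± 0.21). Among indirect-pathway genes 8 of 11 were higher (median 0.20), among them the adenosine receptor Adora2a (0.28 ± 0.17), the orphan receptor Gpr6 (0.28 ± 0.19), the enkephalin precursor Penk (0.20 ± 0.17) and the dopamine receptor Drd2 (0.25 ± 0.33). Their median was 0.02 without het replicate 2, 0.04 without het replicate 3 and 0.07 without wild-type replicate 1.

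Immediate early genes, switched on by neuronal activity, had higher values in 28 of 30 members, with a median of 0.20. Junb, an AP-1 transcription factor, was at 93.6, 78.9 and 75.0 CPM in wild-type and 114, 112 and 102 CPM in het libraries (0.41 ± 0.18). It was the only member with an unadjusted p under 0.05 (1.47% over all genes). It was also the only one without overlap, a share near the 3.38% over all genes. The synaptic pentraxin Nptx2 had 0.40 ± 0.19, Tiparp 0.38 ± 0.22 and Jund 0.23 ± 0.14. The lower members were Nr4a2 (-0.89 ± 0.93), which is also a marker of cortical and claustral neurons, and Ier2 (-0.03). Without both replicates 1, 25 of 30 were higher (median 0.20), but the median was 0.06 without het replicate 2 alone.

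Receptor families other than these gave few separations. Of 25 glutamate receptor genes 12 had higher and 13 lower values (median -0.05), and Grik1 and the AMPA receptor subunit Gria4 were the 2 that did not overlap (3.38% over all genes). Gria4 was at 59.1, 70.2 and 79.4 CPM in wild-type and 58, 56.8 and 51.3 CPM in het libraries (-0.33 ± 0.13). Of 16 GABA receptor genes 10 were higher (median 0.06). Serotonin receptors were higher in 7 of 12 (median 0.04), with Htr2a at -0.35 ± 0.18 and Htr1a at -0.52 ± 0.38. In the stress axis list 8 of 18 were higher (median -0.03), and the corticotropin-releasing hormone receptor Crhr1 had -0.57 ± 0.22. Crhr1 was the only member with an unadjusted p under 0.05 (1.47% over all genes). Of 34 autism risk genes 15 were higher and 19 lower (median -0.02), with no member under an unadjusted p of 0.05 and none without overlap.

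Heat shock and protein-folding genes had lower values in 23 of 26 members (median -0.16), and 3 did not overlap (3.38% over all genes). The median was -0.03 without het replicate 3, -0.07 without wild-type replicate 1 and -0.28 without het replicate 1. The inducible chaperone Hspa1b was at 17.4, 28.0 and 16.8 CPM in wild-type and 15.4, 11.2 and 3.91 CPM in het libraries (-1.03 ± 0.55). The cytosolic chaperone Hsp90ab1 had -0.21 ± 0.13. Ribosomal protein genes, mostly short, were higher in 41 of 42 (median 0.14), but the sign of the median turned without wild-type replicate 3 (3 of 42 higher, -0.15), without het replicate 1 (-0.32) and by limma-voom with sample weights (-0.21), and it was 0.51 without wild-type replicate 1. Of 13 genes tested for hypothalamic neurons 9 had higher values, and their summed level was 240 TPM in het replicate 1 against 29.1 to 125 TPM in the other 5 libraries. Pmch, at 2.16 ± 1.47, followed that library alone.

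**Figure D4:**
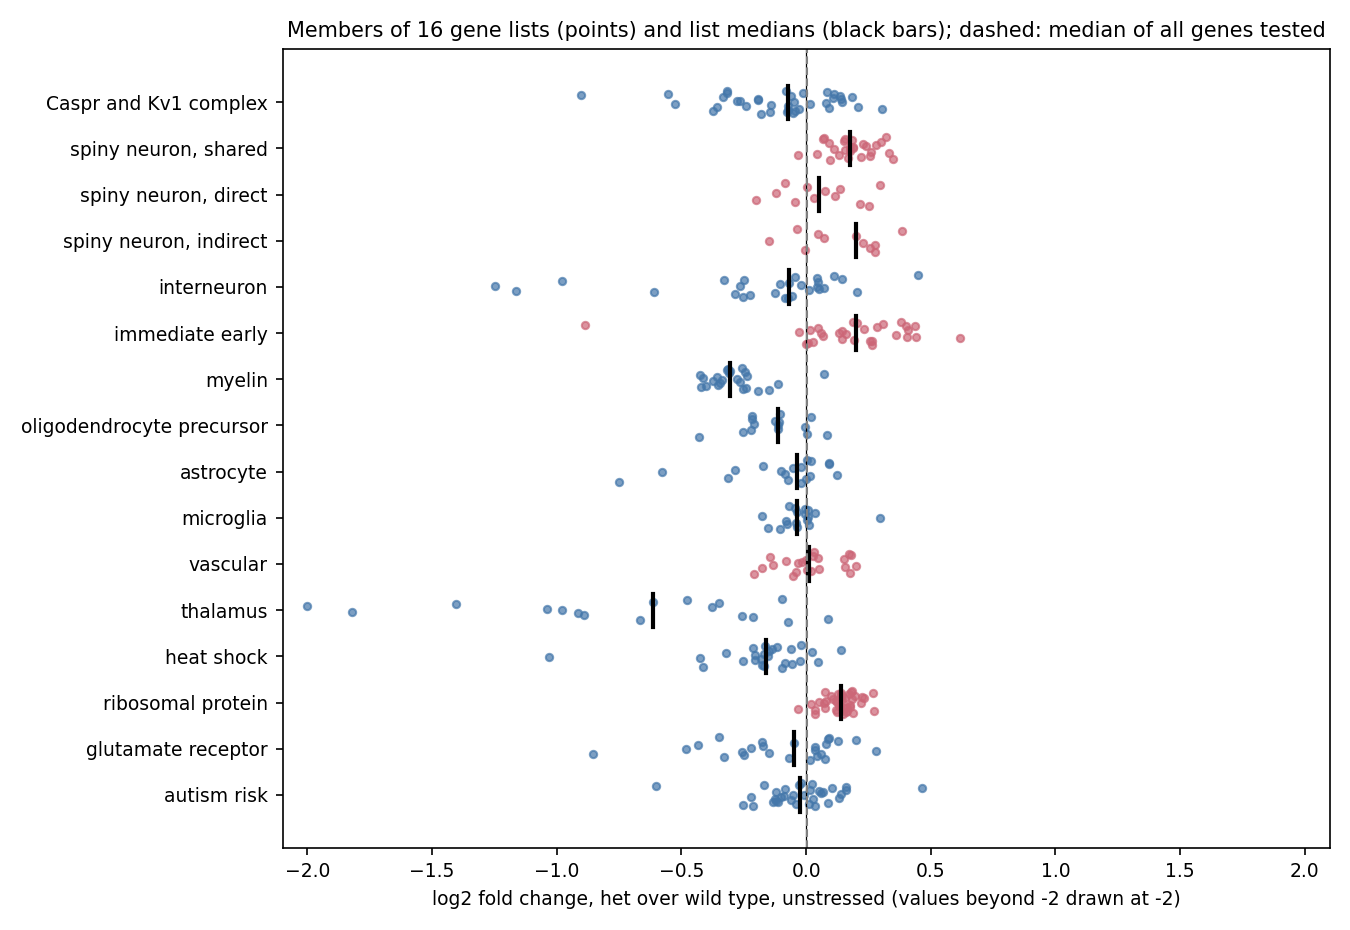
Log2 fold changes (unstressed het over wild type) of the tested members of 16 gene lists, with the list median as a black bar and the median of all genes tested as a dashed line; red and blue mark medians above and below 0. Myelin and thalamus members lie mostly below 0, spiny neuron, immediate early and ribosomal members mostly above, with medians from -0.62 to 0.20.

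The same genotypes were also compared in prenatally stressed offspring, in 6 other mice. Gm6736 rose there too and was the only gene called (0.00627%), with a fitted log2 fold change of 10.97 against libraries at 0, which is no bound. Its CPM was 0 in all 3 stressed wild-type libraries and 12.6, 14 and 11 in the stressed het libraries. The difference between the conditions was not called (interaction, unadjusted p = 0.0907). Without the library labelled stressed wild-type replicate 2 the stressed fold change was 10.98 and no longer called by edgeR (adjusted p = 0.0526), with 0 genes called and 123 at an unadjusted p under 0.05. Gm10800 was again separated (3.82, and 7.60 without that library), with 0, 0.217 and 0 CPM in wild-type and 1.11, 1.42 and 1.06 CPM in het libraries. Over all 12 libraries, 12 genes (0.0752% of those tested) had all 6 het libraries on one side of all 6 wild-type libraries, 7 higher and 5 lower. How many genes would separate so under other arrangements of the labels was not tested, so the 12 are listed as a description only. They were Gm6736, Gm10800, 2810408I11Rik, ENSMUSG00000087580.2, the proteoglycan Epyc (0.40 in unstressed mice), the innate immune adaptor Myd88 (0.29) and the zinc finger gene Zfp51 (0.31) on the higher side, and Cyp39a1, Atp6v0c-ps2, Zfp7 (-0.44), ENSMUSG00000091089.1 (-0.89) and Tmem52 (-0.33) on the lower side. None but Gm6736 passed the test in either condition by edgeR. Without the library labelled stressed wild-type replicate 2, 20 genes (0.125%) were separated, these 12 among them. Depth also separated the genotypes over all 12 libraries, with 13587154 to 18538304 expected counts in wild-type and 21410135 to 24039706 in het libraries. Depth and genotype therefore cannot be told apart in the stressed mice either. Before scaling, expected counts overlapped between the genotypes for the 5 lower genes of the 12 and not for the 7 higher ones.

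Few of the other differences of unstressed mice had the same size in stressed mice. Cntnap2 was at -0.40 in stressed mice (edgeR, unadjusted p = 0.0964), or -0.51 without the library labelled stressed wild-type replicate 2. Its stressed CPM was 80.6, 82.7 and 130 in wild-type and 73.2, 68.7 and 80.0 in het libraries, without overlap. In TPM the stressed means were 50.2 in wild-type and 51.4 in het mice, so the 2 measures differed in direction. Over all genes, 47.4% had the same sign in both conditions, and 51.4% without the library labelled stressed wild-type replicate 2. Of the 15 genes with higher values 10 kept the sign in stressed mice, and of the 15 with lower values 6 did, with medians of 0.06 and 0.04 against 1.02 and -0.99 in unstressed mice. Without that library 9 and 5 kept the sign, with medians of 0.15 and 0.05. For the interaction, 0 genes passed after adjustment by edgeR, DESeq2, limma-trend or limma-voom with sample weights, with 212 (1.33%), 269, 212 and 2405 at an unadjusted p under 0.05. The 30 genes were chosen on their values in unstressed mice, and no such choice was made in stressed mice. Shox2 (1.55), Spp1 (0.64) and Rab37 (0.49) had higher values in stressed het mice, as did Pvalb (0.53) and Kcnc2 (0.44). Without the library labelled stressed wild-type replicate 2 these were 3.48, 0.99, 0.74, 1.18 and 0.67 in the same order. Kcns3 was at 0.08, Dusp10 at 0.04 and Gfap at 0.39, or 0.05, 0.13 and 0.66 without it. Xrra1 and Gm7488 separated the genotypes in the opposite direction in stressed mice (-0.36 and 0.50), and so did the progenitor factor Sox4 (0.14 in unstressed, -0.33 in stressed mice), a gene picked out for this after its values were seen.

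Gene groups also differed between the conditions, and these differences were not tested as groups. Myelin genes had higher values in 22 of 24 members in stressed het mice (median 0.17), against 23 of 24 lower without stress, and spiny neuron genes were higher in 8 of 27 (-0.05). Thalamic genes were lower in 12 of 17 (-0.11) and ribosomal protein genes lower in 39 of 42 (-0.11). Immediate early genes were higher in both conditions, in 24 of 30 members with a median of 0.22 in stressed mice. Junb was at 0.29 and Tiparp at 0.38 there, while Jund was at -0.10 and Nptx2 at -0.04. Without the library labelled stressed wild-type replicate 2, myelin genes were higher in 22 of 24 (median 0.29), spiny neuron genes in 4 of 27 (-0.15), thalamic genes in 6 of 17 (-0.15) and immediate early genes in 21 of 30 (0.14), while ribosomal protein genes turned to higher in 39 of 42 (0.07).

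**Figure D5:**
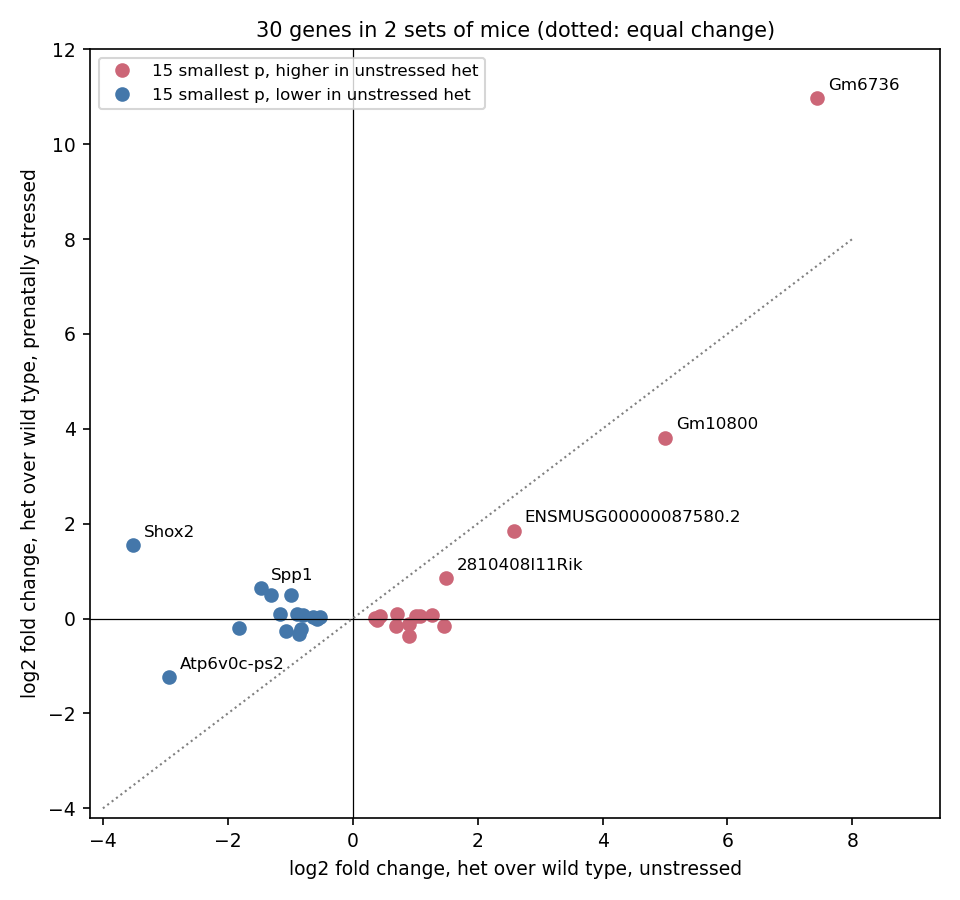
Log2 fold change of het over wild type in prenatally stressed mice against that in unstressed mice for the 30 genes of smallest p in unstressed mice; the dotted line marks equal change. Gm6736, Gm10800, ENSMUSG00000087580.2, 2810408I11Rik and Atp6v0c-ps2 lie on the same side of 0 in both, while most others lie near 0 in stressed mice.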

How the data were processed

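RNA was taken from striatal micropunches (about 30 mg, 1.53 to -0.95 mm from bregma) and copied with random primers, per the labels' protocols. Per the submitters' processing notes, the authors used RSEM and Bowtie, with mm9 (NCBIM37) as the build. The sources used here give neither their versions for RNA nor any use of strand, so overlapping genes cannot be told apart. The deposited files give each gene's expected count, TPM and FPKM, per the file headers, with 1 gene file and 1 transcript file per library. The members, gene lists and tests were chosen with earlier results of these data known.

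After rounding of the expected counts, filterByExpr chose the genes and TMM set the scale. The two-sided quasi-likelihood test of edgeR 4.0.16 (R 4.3.3) used all 12 RNA libraries and 4 group means, so stressed mice add to the estimate of spread (coefficient of variation 0.256). P-values were adjusted by Benjamini-Hochberg over all 15955 genes and called at 0.05. A chi-square test of counts between replicates, divided by the number of genes, gave 8.91 to 220 over the 12 pairs, so none was counted as a duplicate. Fold changes are log2, het over wild type, and CPM is TMM-scaled. The SE beside an edgeR fold change is its absolute value divided by the square root of the quasi-likelihood F statistic. It was not estimated directly. An exact permutation test on log2(TPM + 1) was added for Cntnap2 (scipy 1.17.1). Alternatives were DESeq2 1.42.0, limma 3.58.1 (trend; voom with sample weights), other scalings and filters, other sets of libraries, a replicate block, the length slope as covariate, other TPM pseudocounts and FPKM. The code was tested on simulated data. Depth is given as a range per genotype, and counting intervals cover counting error only.

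Named genes are Cntnap2, genes called by edgeR, DESeq2 or limma-trend, the 15 of smallest p in each direction, the 4 of smallest p in a list, members of the Caspr and Kv1 list, and neighbours of Cntnap2. Some genes the rule names are not reported here. Others were named after their values were seen, or as markers. Of 31 lists, 16 are plotted. The 5hmC data and the stressed transcripts were not used here. Promoter windows are RefSeq's for GRCm38.p6. RefSeq positions gave the order of neighbouring genes, and none of their coordinates is printed, since the files are on mm9. Symbols gave a chromosome for 92.8% of the genes tested, and 664 tested genes have no symbol.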

Additional observations from a re-analysis of the deposited data

How the results depend on the processing

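With 1 gene called by edgeR, DESeq2 called 2, limma-voom with sample weights 983 (472 higher, 511 lower), the fit of the 6 unstressed libraries 0 (89 at an unadjusted p under 0.05), and the length slope with both replicates 1 left out 194 (123 higher, 71 lower); the cause was not tested. Leaving out 1 library gave 0 to 2: 0 without het replicate 2 or stressed het replicate 1, 2 or 3 (177 to 197 at an unadjusted p under 0.05), and 2 without het replicate 3. With a replicate block, 1 gene was called over 12 libraries and 5 over the 6 unstressed ones (Gm6736 and Gm10800 higher; Spp1, Pvalb and Ngfr lower). Deviations of same-numbered wild-type and het libraries correlated at 0.67, -0.04 and 0.67. For numbers 1 and 3, the wild-type and het libraries were each other's best match. Wild-type replicate 2 correlated best with het replicate 1, and het replicate 2 with wild-type replicate 3. Whether equal numbers mark a shared litter or batch is not given by the labels and was not tested. Limma-trend, the other scalings and the other filters gave 1. The interaction gave 0 genes except with the length slope and both replicates 1 left out (71), and 0 to 0 without single libraries. In stressed mice, where edgeR called 1, DESeq2 called 3, limma-voom 3, and the omission of a library left 0 to 1 (0 without stressed wild-type replicate 2 or any stressed het library). The Cntnap2 difference in log2(TPM + 1) ran from -0.24 to -0.02 over omissions. Of 96 genes, 86 kept their direction under every alternative run. All 30 of smallest p were among them, which their choice by p in the same libraries largely fixes. The reversals were, by limma-voom, Kcna1 0.17, Kcna2 0.39, Cntn2 0.12, Sst -0.11, Camk4 0.42, Opalin -0.063, Cbln4 -1.69, Pmch -1.75 and Ttr -0.55. With the length slope and both replicates 1 left out they were Kcna1 0.0064, Kcna2 0.017, Camk4 0.21, Opalin -0.085, Cbln4 -1.05 and Pmch -1.22. With the slope alone they were Kcna2 0.045, Camk4 0.056 and Cbln4 -0.20. With both replicates 1 left out (chosen after seeing the data) they were Camk4 0.063, Ier2 0.027, Cbln4 -1.05 and Pmch -1.31. By limma-trend they were Cbln4 -0.42 and Ttr -1.84, and with the replicate block Cbln4 -0.17, or -0.31 in 6 libraries, with Ttr -0.85. Over omissions Kcna1 ran from -0.50 to 0.19, Kcna2 from -0.63 to 0.57, Cntn2 from -0.63 to 0.11, Sst from -0.19 to 0.53, Camk4 from -0.32 to 0.42, Ier2 from -0.22 to 0.17, Cbln4 from -1.18 to 0.55, Pmch from -3.07 to 3.90 and Ttr from -0.31 to 0.85. Of 775 list medians under alternatives, 17 moved by more than their SD between replicates, which often exceeded the median itself, and 99 changed sign, in 23 of the 31 lists. With 3 mice a group, the median SE of a log2 fold change was 0.25, which limits what could be called.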
